A study of Mus musculus with 12 samples.

Results

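The receptors through which blood-forming growth factors act were examined in mouse acute myeloid leukaemia stem cells (LSC) that carry MLL-AF9, a fusion oncogene of human acute leukaemia, with and without Terc, the gene for the RNA template of telomerase. The members are 8 receptor genes, Kit, Flt3, Csf2ra, Csf2rb, Csf2rb2, Csf3r, Il3ra and Il6ra, and every probe carrying one of these symbols in the platform annotation was taken, which gave 18 of 38502 probes, for 8 of 18484 genes with a probe. Total RNA had been hybridised to 12 Illumina bead arrays, of which 6 were of WT and 6 of Terc-/- LSC. All samples are of the strain C57BL/6J and all express MLLAF9gfp, WT samples included. Per the labels, LKS cells (lin-, kit+, sca1+) derived from WT or G3 Terc-/- bone marrow were given at 10000 cells to each C57BL/6J recipient, aged 6 to 8 weeks and irradiated with 5.5 Gy. That dose was sublethal, so a host can keep marrow cells of its own, which lack the gfp label. LSC were sorted from recipient marrow when each animal developed leukaemia, as MLLAF9gfp+, lin-, kit+, Fcgr+ cells, so Kit protein was itself a sort criterion.

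A phosphorylation status is attached to the Terc-/- samples in the labels. Replicates 2, 3 and 6 are p-p53+ (Ser15), replicates 1 and 4 are p-foxo3a+ (Ser253), and replicate 5 has none. Arrays of WT replicates 5 and 6, and of Terc-/- replicates 2 and 6, were nearly identical (correlation over probes of 0.996 or more, where the remaining pairs of the 66 reached 0.990), and each of these pairs was averaged and counted as 1 sample. This left 5 WT and 5 Terc-/- samples, with 2 samples of each phosphorylation status. Terc-/- replicate 1 was the array least like the others, with correlations of 0.967 to 0.980. The labels do not state whether a group's samples are of different animals, and the p-values below measure the spread between these samples, which may be technical. The small number of samples limits the precision of all values.

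Values are deposited log2 expression values, and differences are on the same scale. A probe was treated as above background when it exceeded 6.57, a limit set from the lower side of the value distribution, and it was tested when it did so on at least 3 of 12 arrays, as 21913 probes did. Each array had 19244 to 19425 probes above that limit. Of 8 genes listed for MLL-AF9 leukaemia stem cells, 7 had a probe, and all 7 were above the limit on every array, among them Hoxa9 (9.63 to 11.04 over the 10 samples), Meis1 (11.53 to 13.20) and Mef2c (10.42 to 13.60). Lists for other cell types were in part above the limit. Of the genes with a probe, 5 of 6 B cell, 4 of 7 T and NK cell and 6 of 8 stroma and endothelium genes passed the filter. Among these, Cd79b (10.17 to 11.35), Nkg7 (9.56 to 14.14) and Pecam1 (8.72 to 10.89) were above the limit on all arrays, while Pax5, Cd3e, Cd3g, Cd8a and Col1a1 were at background on all arrays. No probe in the annotation used here has the symbol Terc or Fcgr3, which leaves the knockout and that part of the sort unchecked.

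Kit and Flt3 are receptor tyrosine kinases, bound by stem cell factor and Flt3 ligand, and both act early in blood cell formation. Csf2ra and Il3ra are the ligand-binding alpha chains for GM-CSF and interleukin-3. They signal by pairing with a beta chain, either Csf2rb, shared by the GM-CSF, interleukin-3 and interleukin-5 receptors, or Csf2rb2, a closely related chain that in the mouse serves interleukin-3 only. Csf3r is the G-CSF receptor, which drives neutrophil production, and Il6ra binds interleukin-6 and signals with the shared chain Il6st (gp130). The cytokine receptors have no kinase of their own and work through JAK kinases and STAT factors, with SOCS family proteins as feedback inhibitors.

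Promoters are shown for 3 genes with samples that stood apart from others of their group, namely Csf2rb2, Csf3r and Il6ra, a choice made after the values were seen. RefSeq entries on GRCm38.p6, covering 250 bases before to 50 after the transcript start, were found for 7 of the 8 genes, Csf2rb being the gene without one. Capitals mark GAGGAA on either strand (TTCCTC when read on the other strand), a core bound by the ETS factor PU.1. Other ETS motifs were not searched or marked.
Csf2rb2, chr15:78305672-78305971, minus strand: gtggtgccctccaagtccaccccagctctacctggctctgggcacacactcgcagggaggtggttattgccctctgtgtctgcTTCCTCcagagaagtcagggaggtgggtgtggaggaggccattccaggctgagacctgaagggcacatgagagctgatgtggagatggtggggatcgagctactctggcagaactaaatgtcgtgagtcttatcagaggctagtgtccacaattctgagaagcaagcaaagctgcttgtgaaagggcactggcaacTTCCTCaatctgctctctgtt
Csf3r, chr4:126024409-126024708, plus strand: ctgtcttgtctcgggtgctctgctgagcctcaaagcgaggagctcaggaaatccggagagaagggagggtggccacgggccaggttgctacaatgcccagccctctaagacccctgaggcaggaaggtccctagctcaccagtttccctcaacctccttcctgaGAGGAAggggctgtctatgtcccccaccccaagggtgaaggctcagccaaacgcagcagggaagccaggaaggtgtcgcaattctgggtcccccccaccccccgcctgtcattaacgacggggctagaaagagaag
Il6ra, chr3:89913147-89913446, minus strand: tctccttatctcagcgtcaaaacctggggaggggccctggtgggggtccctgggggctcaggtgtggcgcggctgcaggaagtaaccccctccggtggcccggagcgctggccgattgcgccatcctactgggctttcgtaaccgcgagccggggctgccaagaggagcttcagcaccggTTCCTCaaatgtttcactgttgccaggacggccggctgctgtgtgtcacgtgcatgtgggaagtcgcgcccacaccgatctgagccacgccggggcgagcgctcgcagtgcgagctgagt
The Csf2rb2 promoter holds this core at 2 places, at positions 84 and 280 counted from its 5′ end, and the Csf3r and Il6ra promoters hold it at 1 place each, at positions 165 and 181. In Csf2rb2 at position 280 and in Il6ra at position 181 the core overlaps a match to TTNNGNAA, a spaced pair of C/EBP-type half-sites, searched on both strands. Csf2rb2 also has 1 match to the STAT motif TTCNNNGAA (position 236), and the Il6ra promoter has 1 match to the GATA motif AGATAA on either strand (position 6). Among 32851 promoters of the same length, 28.3% hold GAGGAA, 40.7% TTNNGNAA, 11.2% AGATAA and 8.3% TTCNNNGAA, so these are common letters and a match is not a shown binding site.

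Of the 18 probes, 15 passed the filter on dim probes, and these cover 7 genes. Flt3 is the gene left out. Its probe ILMN_2761370 was above the limit on 2 arrays, those of WT replicates 1 (6.68) and 3 (6.60), and its other probe, ILMN_2576268, on 0 of 12. A dim probe of Kit, ILMN_1250169, exceeded the limit on 1 array. No fold is given for these 3 probes, since both groups were at background. The other probes were above the limit on all 12 arrays, except those of Csf2rb2 and of Csf3r probe ILMN_1241302, which were above it on 11.

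The comparison of Terc-/- with WT asks which genes differ in level between LSC derived from G3 Terc-/- and from WT bone marrow. No receptor probe passed the threshold of 0.05 after Benjamini-Hochberg adjustment in limma (smallest adjusted p = 0.643). Over all probes 0 of 21913 passed, or 0%, with a smallest adjusted p of 0.0738, while without WT replicate 2 the count over all probes was 3 and without Terc-/- replicate 3 it was 1, none of them a receptor probe. At an unadjusted p under 0.05 stood 2 of the 15 receptor probes, one of Kit and one of Csf2ra, both with higher means in Terc-/-, against 7.43% of all probes (3.09% higher and 4.34% lower). Terc-/- means were above WT for 10 probes and below for 5, with a median difference of 0.13, against -0.01 over all probes. For no receptor probe were the groups free of overlap, which was the case for 1.26% of all probes (0.434% higher and 0.826% lower). In sorted cell populations such as these, fewer cells of a type and less RNA per cell cannot be told apart.

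**Figure D1:**
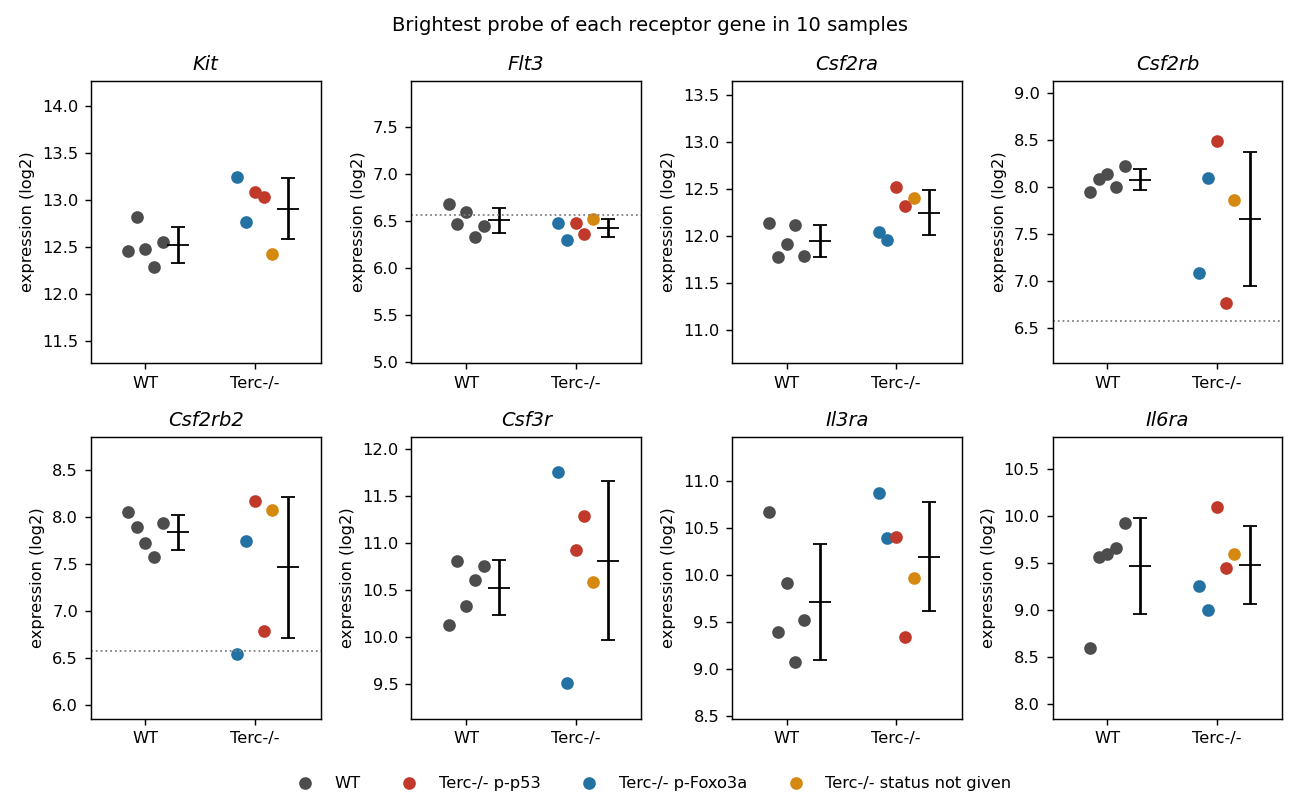
Log2 expression (y axis) of the brightest probe of each of the 8 receptor genes in 5 WT and 5 Terc-/- samples, coloured by phosphorylation status, with the mean and SD of each group as a bar and the background limit of 6.57 as a dotted line where it falls in the panel. The y axes span the same width but are centred on each gene, so heights compare within a panel only. Csf2rb and Csf2rb2 each have 2 Terc-/- samples far below the others, and Flt3 lies at the limit.

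Kit read 12.46, 12.82, 12.48 and 12.29 in WT replicates 1 to 4 and 12.55 in the averaged pair, on probe ILMN_1246876. In Terc-/- samples it read 13.24 (replicate 1), 13.09 (the averaged 2 and 6), 13.03 (replicate 3), 12.77 (replicate 4) and 12.42 (replicate 5). The samples with a phosphorylation status were the high ones, 3 of them above every WT sample, while replicate 5 lay among WT values, so the groups overlapped. The difference was 0.39 ± 0.15 (SE), or 1.31-fold, with an unadjusted p of 0.0291 in limma, an adjusted p of 0.643 and an exact two-sided permutation p of 0.0714. The smallest p that this permutation test can give for 5 against 5 samples is 0.00794. On the dimmer Kit probe ILMN_1216898 the difference was 0.20 ± 0.13 (0.12 without the averaged WT 5 and 6), with 3 Terc-/- samples again above every WT sample. Across the 10 samples the 2 Kit probes correlated at r = 0.73. As Kit was used for sorting, these are levels among cells already selected for the protein.

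Csf2ra, the GM-CSF alpha chain, has 1 probe. In WT it read 12.14, 11.77, 11.91 and 12.11 in replicates 1 to 4 and 11.79 in the averaged pair. Among Terc-/- samples it was 12.52 in the averaged 2 and 6, 12.31 in replicate 3 and 12.40 in replicate 5, but 12.04 in replicate 1 and 11.95 in replicate 4. The 3 samples without the p-Foxo3a label were thus above every WT sample, and the 2 p-Foxo3a samples lay within the WT range. Over all samples the difference was 0.30 ± 0.13 (SE), 1.23-fold, with an unadjusted p of 0.0369 and adjusted p of 0.651 in limma and an exact permutation p of 0.0635.

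Il3ra, the interleukin-3 alpha chain, ranged more widely within both groups. WT replicate 1 read 10.68, replicates 2 to 4 read 9.40, 9.92 and 9.08, and the averaged pair 9.53. Terc-/- samples read 10.88 in replicate 1, 10.41 in the averaged 2 and 6, 9.35 in replicate 3, 10.40 in replicate 4 and 9.98 in replicate 5. WT replicate 1 was as high as the upper Terc-/- samples and Terc-/- replicate 3 as low as most WT samples. The difference of 0.48 ± 0.33 (SE) was therefore within the spread (adjusted p = 0.746 in limma). Without WT replicate 1 it was 0.72, and it lay between 0.31 and 0.72 over all samples left out in turn.

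Csf2rb, the shared beta chain, was even across WT samples and split among Terc-/- samples on its brightest probe. Probe ILMN_2688262 read 7.94, 8.08, 8.13 and 8.00 in WT replicates 1 to 4 and 8.21 in the averaged pair. Terc-/- replicates 1 and 3 read 7.09 and 6.76, whereas the averaged 2 and 6, replicate 4 and replicate 5 read 8.49, 8.09 and 7.86. The low samples carry different labels, replicate 1 being p-Foxo3a and replicate 3 p-p53, and each has a partner of the same label inside or above the WT range. The SD among Terc-/- samples was 0.72, which is 6.57 times the 0.11 among WT samples. Before averaging, the arrays of WT replicates 5 and 6 read 8.38 and 8.04, further apart than the highest and lowest WT samples used. The difference of means was -0.42 ± 0.29 (SE) and did not pass (adjusted p = 0.745 in limma). It was -0.28 without Terc-/- replicate 1 and -0.19 without replicate 3.

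A like split was read on the neighbouring gene Csf2rb2, the interleukin-3 beta chain. Its probe gave 8.06, 7.89, 7.72 and 7.57 in WT replicates 1 to 4 and 7.93 in the averaged pair. It gave 6.54, below the background limit, in Terc-/- replicate 1 and 6.79 in replicate 3, against 8.16, 7.74 and 8.07 in the averaged 2 and 6, replicate 4 and replicate 5. The same samples were low as for Csf2rb, against a WT mean of 7.83. Csf2rb2 differed by -0.37 ± 0.30 (SE) between groups (adjusted p = 0.778 in limma), or -0.14 without Terc-/- replicate 1 and -0.20 without replicate 3. Its SD among Terc-/- samples was 3.95 times that among WT samples. Over the 10 samples Csf2rb2 correlated with Csf2rb at r = 0.89. Over the 5 WT samples alone r was -0.04, so the relation rests on Terc-/- replicates 1 and 3.

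Of the other Csf2rb probes, ILMN_1236070 was lowest in the same samples, with 6.95 in Terc-/- replicate 1 and 6.75 in replicate 3. On this probe the remaining Terc-/- samples held 7.50 to 7.77 and WT 7.20 to 7.93. WT was less even there, and the SD among Terc-/- samples was 1.58 times that among WT samples. The dim probe ILMN_1253312, at 6.58 to 7.15 in all 10 samples, was also lowest in Terc-/- replicate 1 (6.58). It read 6.74 in replicate 3, inside its WT range of 6.66 to 6.82. The averaged Terc-/- 2 and 6, replicate 4 and replicate 5 read 6.97, 6.93 and 7.15, above every WT sample. The Terc-/- minus WT difference of ILMN_1253312 was 0.13 ± 0.10 (SE), opposite in sign to that of ILMN_2688262. For ILMN_1236070 it was -0.27 ± 0.22. Over 10 samples these probes correlated with ILMN_2688262 at r = 0.83 and r = 0.36. Csf2rb and Csf2rb2 are near-identical copies, probe sequences were not used here, and whether a probe of one also binds transcripts of the other was not tested. The signals of the 2 genes therefore cannot be told apart with confidence.

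Csf2rb2 and Csf2rb lie next to each other on chromosome 15. The nearest genes on either side were looked up after the receptor values were seen. Ncf4, the phagocyte oxidase subunit gene before Csf2rb2, read 12.52 in Terc-/- replicate 1 and 13.40 in replicate 3, against 13.02 to 13.72 in WT. It was thus below the WT range in replicate 1 and inside it in replicate 3. Tex33, after Csf2rb, was dim, at 6.636 and 6.545 in these samples and 6.52 to 6.86 in WT. Mature cell markers varied between Terc-/- replicates 1 and 3 as well. The mean over 10 neutrophil markers was 10.73 in replicate 1 and 11.72 in replicate 3, inside and above the WT range of 10.60 to 11.50. Of 10 mast cell and basophil markers, 8 passed the filter, and Mcpt4 and Tpsb2 were at background on all arrays. The summed linear level of all 10 ran from 5994 to 15051 in WT and from 3854 to 15349 in Terc-/- samples. Hdc, of this list, was 7.05 in replicate 1 against 11.218 to 13.315 in the other 9 samples, with 11.447 in replicate 3. Cpa3 was also low in replicate 1, at 6.68 against 7.85 to 12.31 in WT. Gata2 (11.52) and Mcpt8 (7.305) of the same list were not low in replicate 1. Their WT ranges were 8.31 to 12.22 and 6.97 to 7.50. The part of mature cells in the Csf2rb values was not tested.

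**Figure D2:**
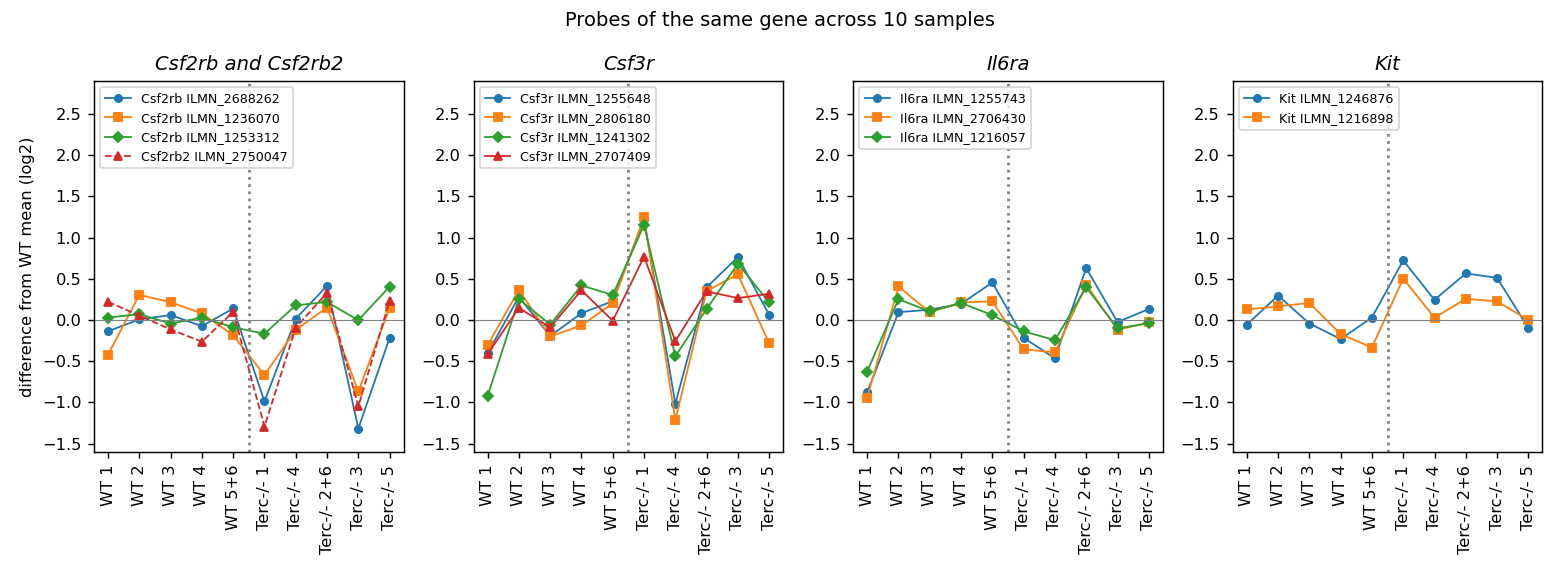
Difference of each probe from its own WT mean (y axis, log2) in each of 10 samples (x axis, WT left and Terc-/- right of the dotted line), for the genes with several probes, and Csf2rb2 drawn as a dashed line with Csf2rb. Csf2rb probes ILMN_2688262 and ILMN_1236070 and Csf2rb2 are low together in Terc-/- replicates 1 and 3, the 4 Csf3r probes are high in Terc-/- replicate 1 and low in replicate 4, and the 3 Il6ra probes are low in WT replicate 1.

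Csf3r, the G-CSF receptor, varied strongly between Terc-/- samples. Its probe ILMN_1255648 read 10.12, 10.80, 10.33 and 10.60 in WT replicates 1 to 4 and 10.75 in the averaged pair. In Terc-/- it reached 11.75 in replicate 1 and 11.29 in replicate 3, with 10.92 in the averaged 2 and 6, 10.58 in replicate 5 and 9.51 in replicate 4. On this probe the p-Foxo3a samples were thus the highest and the lowest of all 10, and both p-p53 samples were above every WT sample. On ILMN_1241302 and ILMN_2707409 the lowest sample was WT replicate 1, at 6.47 and 6.67. The p-p53 samples overlapped with WT on every Csf3r probe but ILMN_1255648. The mean Terc-/- minus WT difference on ILMN_1255648 was 0.29 ± 0.35 (SE), well inside the spread (adjusted p = 0.860 in limma). It was 0.05 without Terc-/- replicate 1, 0.17 without replicate 3 and 0.61 without replicate 4. The 4 Csf3r probes followed each other, with pairwise correlations of r = 0.75 to 0.98 over 10 samples, and their differences lay between 0.13 and 0.35. For probe ILMN_2806180 the sign turned without Terc-/- replicate 1 (from 0.13 to -0.15).

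Single myeloid genes were high and low in the same samples as Csf3r, while others followed it in part or not at all. The kept probes of most similar profile to Csf3r were those of Lyz2, the lysozyme of myeloid cells (r = 0.95 over 10 samples), and Lyst, a regulator of lysosomes and granules (r = 0.94). Lyz2 read 13.97 in Terc-/- replicate 1 and 10.25 in replicate 4. Mpo, the myeloperoxidase of primary granules, was 13.72 in Terc-/- replicate 4 against 15.49 to 15.77 in the other 9 samples. In Terc-/- replicate 1, the highest for Csf3r, Mpo read 15.605, inside its WT range of 15.49 to 15.70. Of 11 neutrophil markers, 10 had a probe and 9 passed the filter, and Mmp8 was at background on all arrays. The summed linear level of the 10 ran from 98552 to 190064 in WT and from 37626 to 215271 in Terc-/- samples. The mean of the neutrophil list was lowest in the averaged Terc-/- 2 and 6 (9.435), where Csf3r probe ILMN_1255648 read 10.92. It was 9.458 in Terc-/- replicate 4 and 10.73 in replicate 1. The part of neutrophils in the Csf3r values was not tested.

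Il6ra, the interleukin-6 alpha chain, had close means in both genotypes and was low in 1 WT sample. Probe ILMN_1255743 read 8.59 in WT replicate 1, against 9.56, 9.59 and 9.66 in replicates 2 to 4 and 9.92 in the averaged pair. Terc-/- samples read 9.25 in replicate 1, 10.10 in the averaged 2 and 6, 9.44 in replicate 3, 9.002 in replicate 4 and 9.60 in replicate 5. Both other probes were also lowest of all 10 samples in WT replicate 1, at 7.68 and 7.52. The 3 Il6ra probes correlated at r = 0.92 to 0.98. Their Terc-/- minus WT differences were 0.01 ± 0.26, -0.09 ± 0.25 and -0.02 ± 0.18 (SE), with 95% limma intervals that reached from -0.64 to 0.58 at the widest ends. Without WT replicate 1 these differences were -0.21, -0.33 and -0.18, so their sign is not settled.

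WT replicate 1 stood apart in other genes too. Of 9 eosinophil genes listed, 7 had a probe, and their mean was highest in this sample at 8.70, against 6.86 to 8.25 in the other WT samples. Prg2 and Prg3, granule proteins of eosinophils, read 15.22 and 12.62 there. Their range in the other WT samples was 7.62 to 12.71 and 7.56 to 10.87. Ear6 and Epx, of the same list, were not high in WT replicate 1. Ear6 read 6.70 in that sample, against 6.39 to 8.15 in the other WT samples. Epx read 6.49, below the background limit, against 6.27 to 6.84. The summed linear level of the eosinophil list ran from 924 to 44966 in WT and from 695 to 15946 in Terc-/- samples, with the defining receptor gene Ccr3 at background on all arrays. Single genes of other lists were high there too. Cpa3 (12.31) and Gata2 (12.22), of the mast cell and basophil list, were highest among WT samples, while Hdc (11.88) and Mcpt8 (6.97) were not. Of the megakaryocyte list, Itga2b (8.58) was highest among WT samples and Gp9 (7.72) was not. Whether eosinophils or other cells have a part in the low Il6ra or the high Il3ra of WT replicate 1 was not tested.

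Spread within groups was compared with that of all probes. The SD was larger among Terc-/- than among WT samples for 10 of the 15 probes, against 54.4% of all probes. It was at least 3 times larger for 4 probes, against 5.21% of all probes, a ratio chosen after the values were seen. These were 2 of Csf2rb, 1 of Csf2rb2 and 1 of Csf3r. Among them, Csf2rb probe ILMN_1253312 had 3 Terc-/- samples above and 1 below every WT sample. Over all 10 samples, 7 of the 15 probes were in the upper 10% of SD among the probes tested. At least 2 Terc-/- samples lay above every WT sample for 8 of 15 probes, against 22% of all probes, and at least 2 lay below every WT sample for 3 of 15, against 27.7%. The 15 probes are of 7 genes, and probes of the same gene are not independent, so these counts are a description only.

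The phosphorylation labels divide the Terc-/- samples, and these comparisons ask whether receptor levels follow them. Each status has 2 samples, both are compared with the same 5 WT samples, and replicate 5 is left out, so limma estimated the spread over 9 samples. No receptor probe passed in any of the comparisons. Over all probes 0 of 21913 (0%) passed in each, but leaving out single samples moved these counts. Against WT, the p-p53 count was 14 without Terc-/- replicate 3 and 2 without the averaged 2 and 6. The p-Foxo3a count was 335 without Terc-/- replicate 4 and 1 without replicate 1, with no receptor probe among them.

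In p-p53 samples against WT, Kit and Csf2ra had unadjusted p under 0.05, 2 of 15 probes against 2.65% of all probes (1.37% higher and 1.27% lower). Kit was 0.54 ± 0.17 (SE) higher, 1.45-fold (adjusted p = 1.00 in limma), with 13.03 and 13.09 in the p-p53 samples and at most 12.82 in WT. Csf2ra was 0.47 ± 0.13 higher, 1.39-fold (adjusted p = 1.00 in limma), with 12.31 and 12.52 against at most 12.14. The p-p53 samples did not overlap with WT for 4 of 15 probes, all higher, against 8.09% of all probes (4.03% higher and 4.06% lower). These were both Kit probes, Csf2ra and Csf3r probe ILMN_1255648, the last with 10.92 and 11.29 against at most 10.80. For Csf3r the difference of 0.58 ± 0.49 was within its spread. For Csf2rb and Csf2rb2 the p-p53 samples lay on either side of WT, and the sign of the differences (-0.45 and -0.36) turned without Terc-/- replicate 3.

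Between p-Foxo3a samples and WT, 1 of 15 probes, that of Kit, had an unadjusted p under 0.05, against 9.41% of all probes (3.97% higher and 5.44% lower). Kit was 0.48 ± 0.17 (SE) higher, 1.399-fold (adjusted p = 0.472 in limma), with 13.24 and 12.77, the lower of which was under the highest WT value. The difference was 0.25 without Terc-/- replicate 1 and 0.72 without replicate 4. Il3ra had the widest shift, 0.92 ± 0.43, or 1.89-fold, from 10.88 and 10.40 against 9.08 to 10.68 in WT (adjusted p = 0.553 in limma). Csf2ra differed by 0.05 ± 0.13. Csf2rb2 was -0.69 ± 0.39, with 1 of the 2 samples below the background limit, and -0.09 without that sample. For 0 of 15 probes did p-Foxo3a samples and WT not overlap, against 12.3% of all probes (4.91% higher and 7.42% lower).

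Set directly against each other, p-p53 and p-Foxo3a samples differed for Csf2ra by 0.42 ± 0.16 (SE), higher in p-p53 (adjusted p = 0.986 in limma). This was 1 of 15 probes, against 4.87% of all probes (2.67% higher and 2.2% lower), with an unadjusted p under 0.05. The samples did not overlap for 4 of 15 probes, Csf2ra and all 3 of Il6ra, against 29.7% of all probes (16.1% higher and 13.6% lower). Il6ra read 9.44 and 10.10 in p-p53 and 9.002 and 9.25 in p-Foxo3a samples on ILMN_1255743, a difference of 0.64 ± 0.40 (adjusted p = 0.986 in limma). It was 0.32 without the averaged 2 and 6 and 0.97 without replicate 3. For Il3ra the difference was -0.76 ± 0.51, with -0.23 without Terc-/- replicate 3 and -1.29 without the averaged 2 and 6. Over all probes this comparison gave 48 calls without Terc-/- replicate 4, 18 without replicate 3 and 1 each without replicate 1 or the averaged 2 and 6, and 0 of these were receptor probes.

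**Figure D3:**
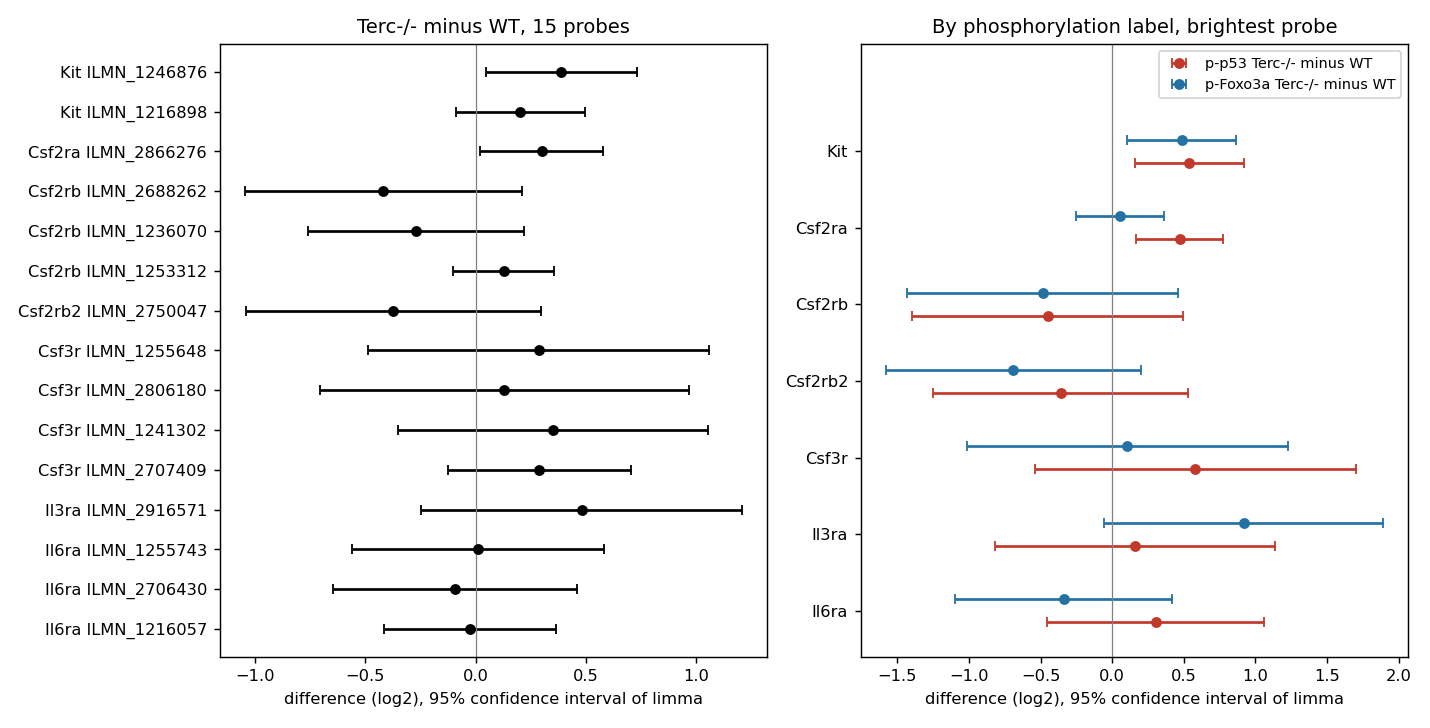
Differences in log2 expression with 95% limma confidence intervals, for the 15 tested probes in Terc-/- minus WT (left) and for the brightest probe of 7 genes in p-p53 and p-Foxo3a samples minus WT (right). Intervals are unadjusted, and those of Kit ILMN_1246876 and Csf2ra lie above 0 on the left, while no probe passed after adjustment.

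Ligands of these and of related receptors were mostly at background in the sorted cells. Of 13 such genes, 12 had a probe and 4 were tested (Csf3, Csf1, Il11 and Osm), and 0 passed in either direction. Of the 4, only Csf3 encodes a ligand of a receptor described here. Kitl, which encodes stem cell factor, had 3 probes and none was above the limit on enough arrays. Csf3, encoding G-CSF, read 6.80 to 6.92 in WT and 6.525 to 6.98 in Terc-/- samples, while Csf1 and Il11 stayed within 6.38 to 6.79. Osm, which encodes oncostatin M, a ligand of Osmr and Lifr, and is also a target of STAT5, varied widely, from 9.68 to 12.34 in WT and from 9.78 to 12.84 in Terc-/- samples. Its highest values were in Terc-/- replicate 1 and WT replicate 1. The Terc-/- minus WT difference of Osm was 0.97 ± 0.61 (SE), and in p-Foxo3a samples against WT it was 1.86 ± 0.69 (adjusted p = 0.485 in limma).

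Other growth factor and cytokine receptors had a median near that of all probes. Of 37 genes, 31 were tested, 16 had higher and 15 lower Terc-/- means, 0 passed, and the median difference was 0.01 against -0.01 over all probes. The 3 of smallest p were Osmr, the oncostatin M receptor (-0.18 ± 0.08, SE), Il17ra (0.43 ± 0.19) and Ifngr2 (-0.37 ± 0.17), with adjusted p of 0.655 to 0.675 in limma. Csf1r, the receptor of macrophage growth factor, differed by -0.24 ± 0.23. Il6st, the partner of Il6ra, read 6.51 to 7.44 in WT and 6.56 to 7.18 in Terc-/- samples, highest in WT replicate 1, where Il6ra was lowest.

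Kinases, adaptors and STAT factors next to the receptors also split evenly. Of 36 genes, 30 were tested, 15 were higher and 15 lower, 0 passed, and the median was -0.03. Syk, a cytoplasmic tyrosine kinase, read 7.23 to 7.64 in WT and 6.99 to 7.31 in Terc-/- samples (-0.33 ± 0.09, SE). Jak3, the kinase of receptors with the shared gamma chain, read 8.93 to 9.24 in WT and 9.16 to 9.65 in Terc-/- samples (0.36 ± 0.11). Gab2, an adaptor, differed by 0.23 ± 0.09. None of these passed the adjustment over all probes (adjusted p = 0.610 to 0.643 in limma). The kinase and STAT genes most tied to the receptors here gave Jak2 at 0.22 ± 0.19, Stat3 at 0.17 ± 0.19 and Stat5a at -0.10 ± 0.09, and the Stat5b probe was not above the limit on enough arrays.

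Feedback inhibitors and response genes were read as a downstream measure. Of 34 negative regulators, 28 were tested, 11 were higher and 17 lower, 0 passed, and the median was -0.03. Of 25 STAT5 and cytokine response genes, 23 were tested, 14 were higher and 9 lower, 0 passed, and the median was 0.07. Of the tested genes, Cish, Socs2, Socs3 and Spred2 stand in both lists. Socs3, an inhibitor of G-CSF and interleukin-6 receptor signalling, read 6.30 to 6.63 in WT, with 1 of 5 samples above the limit. In Terc-/- it read 7.55 in replicate 1, 7.002 in replicate 5, 6.67 in replicate 3, 6.59 in replicate 4 and 6.55 in the averaged 2 and 6 (0.45 ± 0.18, SE, adjusted p = 0.643 in limma). Terc-/- replicate 1, the highest for Socs3, was also the highest for Csf3r and for Kit. That array was also the least like the others over all probes. Whether its extremes are particular to these genes was not tested.

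The remaining response genes varied between single samples. Cish, the classic STAT5 feedback gene, read 9.43 and 9.27 in Terc-/- replicates 1 and 3 and 7.61 in replicate 4, against 7.55 to 8.81 in WT (0.49 ± 0.34, SE). Pim1, a survival kinase induced by STAT5, reached 9.04 in Terc-/- replicate 5, with 6.53 to 7.02 in WT and 6.57 to 7.61 elsewhere in Terc-/- (0.77 ± 0.39). Ccnd3, a D-type cyclin, was -0.27 ± 0.11 and Pim3 0.33 ± 0.15, while Socs2 was -0.08 ± 0.19. Among the negative regulators, the phosphatase Ptpn1 (-0.29 ± 0.13) and the adaptor Sla (-0.25 ± 0.14) followed Socs3 in order of p.

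Against WT, p-Foxo3a samples had unadjusted p under 0.05 for 6 of 28 negative regulators (2 higher, 4 lower) and 7 of 23 response genes (5 higher, 2 lower), set beside 9.41% of all probes, and 0 passed. Sla was lower by -0.57 ± 0.10 (SE, adjusted p = 0.333 in limma), and the survival gene Bcl2 higher by 1.52 ± 0.55 (adjusted p = 0.483). Bcl2 read 10.10 in Terc-/- replicate 1 and 9.25 in replicate 4, the latter under the highest WT value of 9.56. For p-p53 samples against WT the counts were 0 of 28 and 0 of 23, set beside 2.65% of all probes, and the difference between the counts was not tested. Both sets use the same WT samples.

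Proteases and inhibitors that bear on shedding of receptors from the cell surface were tested for 12 of 15 genes, 6 higher and 6 lower, with 0 passing. Timp2, an inhibitor of metalloproteinases, read 7.10 to 8.29 in WT and 9.84, 9.08, 9.09, 7.44 and 8.72 in Terc-/- replicate 1, the averaged 2 and 6, and replicates 3, 4 and 5. All but replicate 4 were above every WT sample (1.00 ± 0.39, SE, adjusted p = 0.643 in limma). Adam10, a sheddase, and Elane, neutrophil elastase, followed in order of p, at -0.15 ± 0.13 and -0.10 ± 0.10. Adam17, which sheds several cytokine receptors including Il6ra, differed by -0.06 ± 0.14 overall. Its p-p53 samples, at 9.53 and 9.47, were below the WT range of 9.69 to 10.10. The same was the case for 4.06% of all probes, and a lack of overlap in either direction for 8.09%.

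**Figure D4:**
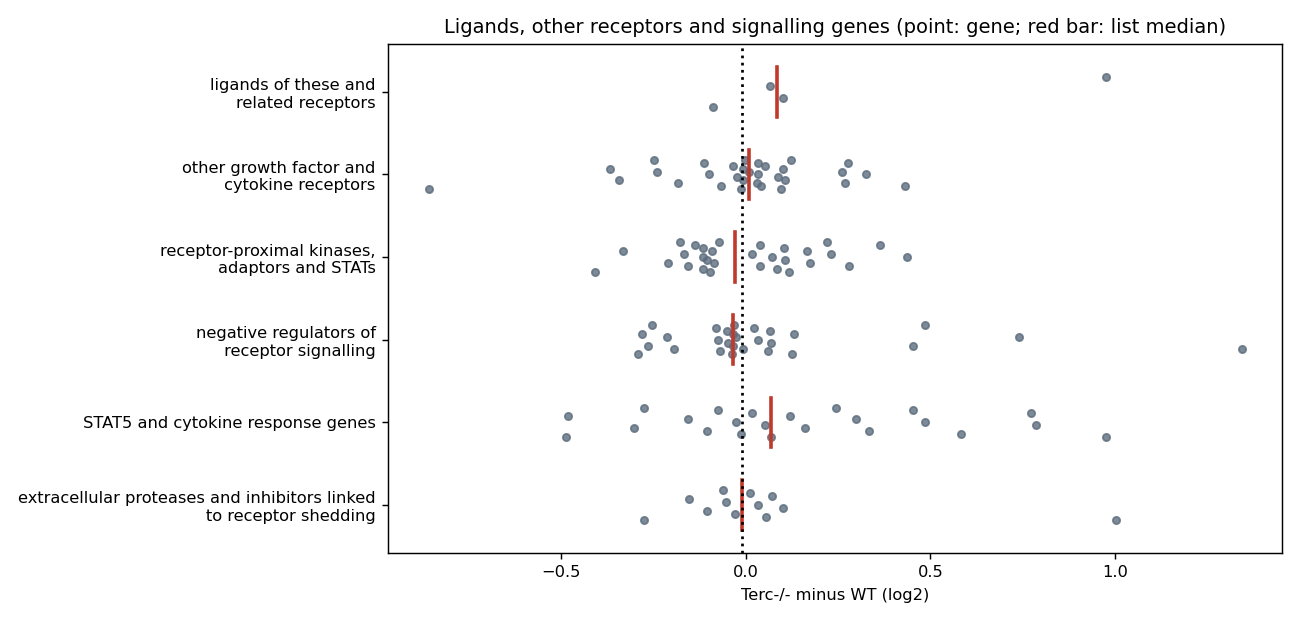
Terc-/- minus WT difference (x axis, log2) of each tested gene in the 6 lists of ligands of these and related receptors, other receptors and signalling genes, with the list median in red and the median of all probes as a dotted line. List medians lie between -0.03 and 0.08, and single genes reach from -0.86 (Flt1) to 1.34 (Dusp5).

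For receptors above background on all arrays, the genes of most similar profile over the 10 samples were named by their Pearson r, as a description of samples normalised together. For Kit these were Inf2 (r = 0.93) and Rida (r = 0.93). Csf2ra was matched by Kat7, a histone acetyltransferase gene (r = 0.91), and Ostf1 (r = 0.89). Csf2rb was matched by Nipsnap3b (r = 0.97), whose 2 lowest samples were also Terc-/- replicates 1 and 3, and by the mannosidase gene Man2b2 (also r = 0.97). Il3ra was nearest to Rsad1 and Nsun4 (r = 0.95 and 0.94). Il6ra was nearest to the phosphodiesterase gene Pde10a (r = 0.95) and Klhl17 (r = 0.92). None of these genes was another receptor of the set, but only 2 were listed for each. Csf2rb2, above the limit on 11 arrays, was not matched in this way, and its r with Csf2rb was 0.89.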

How the data were processed

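RNA of 12 samples (6 WT, 6 Terc-/-) was read on Illumina bead arrays. The authors deposited log2 values of 38502 probes, made with GenomeStudio per the submitters' processing notes. How they were normalized and corrected for background is not stated in the sources used here. Array medians lay between 6.57 and 6.58 and sorted values differed by at most 0.0945 between arrays, no background subtraction was visible, and the log base was read from the range. Fold changes on this scale therefore understate changes, most for dim probes. A deposited table of raw signals has 24 columns that match no sample and was not used.

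The background limit of 6.57 is the mode of all values (6.35) plus the upper 0.05 tail of its lower-side spread (SD 0.13). Probes above it on at least 3 arrays were tested. Near-identical arrays of a group were averaged, leaving 10 samples. In R 4.3.3, limma 3.58.1 (lmFit, eBayes) was run over all 21913 kept probes, two-sided, with Benjamini-Hochberg adjustment over all of them and a threshold of 0.05. Status comparisons came from 1 fit of 3 levels over 9 samples. The exact permutation test used all 252 arrangements of 5 against 5 samples. The fits were tested on simulated data.

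The platform annotation gave 1 gene to 32034 probes, several to 16 and did not list 6452. Entrez identifiers matched 31976 probes to the gene table of GRCm38.p6, also used for gene order. For lists, the brightest kept probe stood for a gene. All probes of the members are named, and of each list the 3 genes of smallest p, 12 further genes of known role, and for each receptor above the limit on all arrays the 2 genes of highest Pearson r. The members and lists were chosen with earlier results of these data known. Dusp5, Flt1, Mef2c, Adam17, Bcl2 and single marker genes were named after their values were seen. Same-numbered WT and Terc-/- arrays did not deviate together, so numbers were not treated as pairs. The alternatives were the 12 arrays taken separately, a replicate block, other filters, repeated quantile normalization, background subtraction, 1 probe per gene, a variance trend, array weights and each sample left out.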

Additional observations from a re-analysis of the deposited data

Results flagged for a closer look

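A WT sample lay far from the other 4 on all 3 probes of Il6ra. WT replicate 1 read 8.59 on probe ILMN_1255743, where the nearest WT sample read 9.56 and the highest 9.92, so that its gap made up 0.730 of the group's range. On ILMN_2706430 it read 7.68, with the nearest at 8.71 (0.767 of the range), and on ILMN_1216057 it read 7.52, with the nearest at 8.20 (0.780). The critical value for 5 samples is 0.71. In all, 36 groups of 5 were looked at in this way and 3 stood out, and chance gives about 1 in 20 of them. The 3 probes read the same gene in the same sample and are not independent.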

How the results depend on the processing

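Receptor probes past the threshold stayed at 0 in all 4 comparisons under every alternative run. Over all probes, the count in Terc-/- against WT was 1 with all 12 arrays as separate samples, 1 with array weights and 0 to 3 with a sample left out. For p-p53 against WT it was 2 with 12 arrays and 0 to 14 with a sample left out. The ranges with a sample left out were 0 to 335 for p-Foxo3a against WT and 0 to 48 for p-p53 against p-Foxo3a. Leaving out 1 sample of a status leaves a lone sample, which is assumed to vary like the others. With the replicate block on 12 arrays, 0 probes passed in each comparison. Same-numbered arrays correlated at -0.23 to 0.12 in their deviations, and 0 of 6 numbers correlated best with their own.

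Of the 15 differences in Terc-/- against WT, 11 kept their sign everywhere. The signs of the others turned as follows, with ranges over samples left out. Il6ra ILMN_1216057 was 0.036 with 12 arrays and 0.036 with the replicate block, and ranged from -0.18 to 0.039. Il6ra ILMN_1255743 was -0.10 with array weights and ranged from -0.21 to 0.13. Il6ra ILMN_2706430 ranged from -0.33 to 0.0089. Csf3r ILMN_2806180 was -0.082 with array weights and ranged from -0.15 to 0.47. In p-p53 against WT, Il3ra ranged from -0.37 to 0.69, Csf2rb from -1.32 to 0.41, Csf2rb2 from -1.05 to 0.33 and Il6ra from -0.024 to 0.63. In p-Foxo3a against WT, Csf2ra was -0.13 with the replicate block, Csf2rb ranged from -0.99 to 0.017 and Csf3r from -1.02 to 1.23. In p-p53 against p-Foxo3a, Kit was -0.21 with the replicate block and ranged from -0.18 to 0.29. There Csf2rb was -0.00088 after background subtraction and ranged from -0.83 to 0.90, Csf2rb2 from -0.35 to 1.02 and Csf3r from -0.65 to 1.596. The causes were not tested. Limits of the data are the dim signal of Csf2rb, Csf2rb2 and Flt3, near the background limit, and 2 samples a status.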
